A study of Oryza sativa with 6 samples.

Results

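The loci described here are the well-expressed rice loci whose read counts stayed close to one level at dawn and at dusk. Counts were first divided by median-of-ratios size factors, a scaling that takes the typical locus as unchanged between libraries; the results are called scaled counts. A locus entered the set when its mean scaled count over the 6 libraries was at least 1000 and its largest scaled count was at most 1.3 times its smallest. Of 55801 listed loci, 5178 reached that mean, and 183 of these, or 3.53%, also met the limit on the ratio. The members were thus chosen by their mean and their largest-to-smallest ratio in these same libraries, so their level, their spread and their PM against AM difference are given as descriptions, and no test of them is read as evidence.

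Plants were rice (Oryza sativa) of genotype Nipponbare grown on Chu's media at 28 °C, with day and night of 12 h each. The AM group (n = 3) was collected 30 min before lights on and the PM group (n = 3) 30 min before lights off. Both groups shared genotype, medium, temperature and light regime, and no age was given. Series text describes a study of how the genome used for mapping affects calls of differential expression and splicing; splicing was not analysed here. The labels name seedlings as the source and panicle as the organ, and they do not state that replicates were separate plants, so a p-value here speaks only of the scatter among these libraries, and that scatter may be technical. Gene counts ranged from 12994620 to 66665035 per library.

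The tissue was checked against lists of marker genes. Of 11 floral markers, 2 had no count in any library, and the summed level of the list was 5.68 to 6.12 CPM (the count as a share of all gene counts in the library) in AM and 5.93 to 7.59 in PM. MADS8 and MADS13 were the ones at 0, and MADS6 and MADS7 had 1 count each in all libraries together. MADS1, MADS2, MADS4, MADS16 and MADS58 had counts in every library. MADS16 had 78, 279 and 148 counts in AM replicates 1, 2 and 3, and 36, 10 and 112 in PM replicates 1, 2 and 3. The 3 leaf markers, RCA, LHCB4 and PRK, summed to 37636 to 46108 CPM in AM and 3164 to 4076 CPM in PM. The 3 root markers summed to 13.7 to 19.7 CPM in AM and 9.23 to 10.2 CPM in PM, with LSI2 at 0. The low floral levels go against the label panicle but do not exclude it. The leaf markers were at much higher levels than either other list in every library, though read counts of different genes cannot be compared directly. In whole plants, fewer cells of a type and less RNA per cell cannot be told apart.

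Transcripts of many plant genes rise and fall over the day because the circadian clock and light act on their promoters, and photosynthesis genes are a well-known example. A transcript that keeps its level across the day is of practical use, because PCR assays divide by such a transcript, the reference gene. The libraries here come only from shortly before lights on and shortly before lights off, so levels at other times of day are not known. Whether any member would serve as a PCR reference was not tested. Genes of central metabolism and of the cytoskeleton have often served as references in rice. The names used below come from a list of locus identifiers written by hand and compared with the RefSeq gene table by symbol, chromosome and rough position, since the deposited files carry identifiers alone. They name 17 of the 183 loci. Of these names, 3 come from the list as first written and 14 were added later, with the values known and because the loci are members, so the number of named loci supports nothing. The other 166 loci are given by identifier only and are assigned no role.

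Most well-expressed loci varied far more than the members. The median ratio of the largest to the smallest scaled count was 2.41 over the 5178 loci, with quartiles at 1.7 and 4.64, and 3203 loci, or 61.9%, exceeded 2. Among the 183 members the median ratio was 1.24. A ratio of at most 1.1 was kept by 3 members and one of at most 1.2 by 45, so most members lay in the upper part of the permitted range. No single member value lay below 0.828 or above 1.19 times the mean of its locus.

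**Figure D1:**
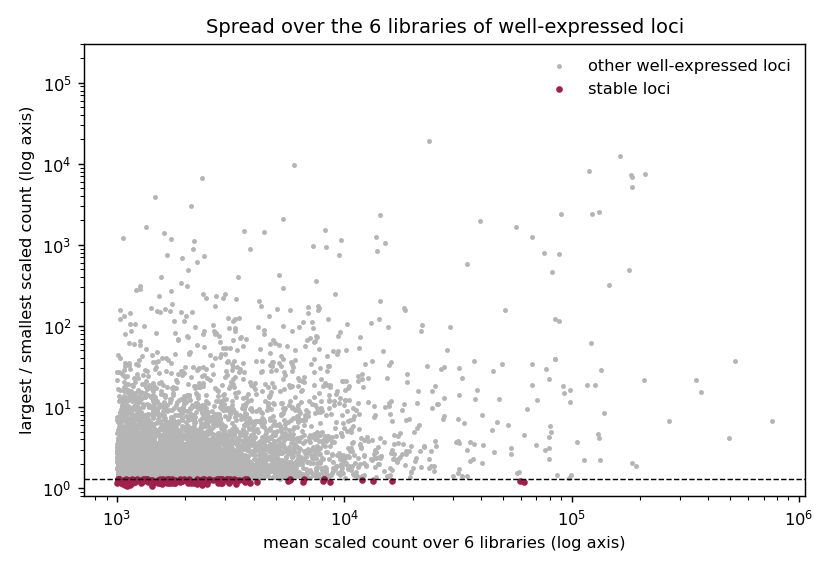
Each point is a well-expressed locus, with its mean scaled count over 6 libraries on the horizontal axis and the ratio of its largest to its smallest scaled count on the vertical axis, both on log scales; 2 loci at 0 in a library are not drawn. The 183 stable loci are in red under the dashed line at 1.3, and they form the lower edge of a continuous cloud whose median is 2.41.

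The limit on the ratio acted both within and between the groups. Within AM, 2202 of the well-expressed loci, or 42.5%, kept a ratio of at most 1.3 over the 3 replicates, and within PM 2378, or 45.9%, did. Both conditions held for 1329 loci. The AM and PM means lay within 1.3-fold of each other at 1455 loci, or 28.1%, and 476 loci met all of these conditions. The further requirement that all 6 libraries fit within one 1.3-fold range left the 183. Median within-group ratios of the members were 1.14 in AM and 1.14 in PM, against 1.35 and 1.33 over the well-expressed loci.

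Members were spread over the range of count levels. Their median mean scaled count was 1796, with quartiles at 1279 and 2585, against a median of 1977 and quartiles at 1353 and 3400 for all well-expressed loci. Scaled counts are not divided by transcript length, so they give how many reads a locus drew, not a level that can be compared between genes. Counts above 10000 were reached by 5 members, or 2.73%, and by 300 well-expressed loci, or 5.79%. The smallest raw count of any member in any library was 545, for which counting error alone is 4.28%; for the member with the median smallest count, 1032, it is 3.11%.

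The members with the most reads were LOC_Os03g56280 and A7 (LOC_Os04g56160), a plasma membrane proton pump that moves protons out of the cell and so powers the uptake of nutrients. LOC_Os03g56280 had scaled counts of 56927, 68375 and 58747 in AM replicates 1, 2 and 3 and of 59806, 64808 and 63267 in PM replicates 1, 2 and 3. A7 had 53479, 61042 and 66030 in AM and 61938, 55497 and 59208 in PM. At both loci the highest and the lowest library were AM libraries, and the PM values lay between them. The PM mean was 1.02 times the AM mean at LOC_Os03g56280 and 0.978 times at A7.

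Both named enzymes of glycolysis among the 8 members with the highest mean were in the list as first written. TPI (LOC_Os01g05490), triose phosphate isomerase, interconverts the 2 triose phosphates of the pathway. Its scaled counts were 17444, 17654 and 15501 in AM and 15222, 16671 and 14429 in PM, with means of 16867 ± 1187 and 15441 ± 1137 (SD, n = 3). GAPC1 (LOC_Os08g03290), the cytosolic glyceraldehyde-3-phosphate dehydrogenase of the step that follows, had 12860, 14464 and 11779 in AM and 14447, 13117 and 13363 in PM. Its means were 13035 ± 1351 and 13642 ± 707 (SD, n = 3). AM and PM values of both genes overlapped, TPI being slightly higher on average in AM and GAPC1 in PM.

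The other 4 of the 8 highest members carry no name here. LOC_Os05g23740 had scaled counts of 12515, 13436 and 10743 in AM and 11290, 10641 and 13255 in PM. LOC_Os06g15990 had 8535, 7948 and 7778 in AM and 9305, 9349 and 8840 in PM, and every PM value lay above every AM value. LOC_Os02g38050 had 8923, 8683 and 6931 in AM and 8597, 8649 and 7128 in PM, with replicate 3 lowest in each group. LOC_Os02g10700 had 7755, 7696 and 8624 in AM and 9130, 7040 and 8598 in PM, a ratio of 1.3 that put it close to the limit.

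The tightest locus of all 5178 was LOC_Os03g46340, with 1380, 1427 and 1444 in AM and 1428, 1462 and 1432 in PM. Its ratio of largest to smallest was 1.06, and its smallest raw count of 832 reads gives a counting error of 3.47%. LOC_Os11g26130 followed with 1137, 1126 and 1068 in AM and 1139, 1118 and 1054 in PM, a ratio of 1.08. LOC_Os06g48770 was next with 2273, 2295 and 2345 in AM and 2468, 2431 and 2382 in PM, a ratio of 1.09. Its PM values were all above its AM values, with means of 2427 ± 43.2 and 2304 ± 37.1 (SD, n = 3). The next 4 were LOC_Os03g37984, LOC_Os07g38090, LOC_Os01g69990 and LOC_Os05g35710, with ratios of 1.11, 1.11, 1.11 and 1.12. IAA19, described with the auxin genes, was the eighth at 1.13.

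At the limit itself the division is arbitrary. The 4 members just inside were LOC_Os02g39560, LOC_Os03g64350, LOC_Os07g22640 and LOC_Os03g32590, with ratios from 1.298 to 1.3. The 4 well-expressed loci just outside were LOC_Os02g08120, LOC_Os04g42320, LOC_Os05g43360 and LOC_Os01g71980, with ratios from 1.3002 to 1.301. LOC_Os02g39560, inside, had 1151, 1134 and 1284 in AM and 1045, 994 and 990 in PM. LOC_Os05g43360, outside, had 1769, 1795 and 1644 in AM and 1380, 1486 and 1402 in PM. In both of these loci the AM values were all above the PM values, so a ratio near the limit can hold a small one-way difference.

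The named members outside glycolysis and proton transport are next given by role, beginning with metabolism and hormone perception. OSL2 (LOC_Os04g52450), a GABA transaminase that breaks down the amino acid GABA, had 3205, 3347 and 4020 in AM and 3867, 4143 and 3358 in PM. COI1B (LOC_Os05g37690), an F-box protein of the jasmonate receptor family, had 3220, 3236 and 3558 in AM and 3440, 3135 and 3358 in PM. Values of the groups overlapped at both loci, and COI1B had the smaller ratio, 1.13 against 1.29 for OSL2.

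SMAX1L (LOC_Os08g15230), a repressor of karrikin signalling, had 2368, 2515 and 2430 in AM and 2254, 2063 and 2231 in PM. NPR2 (LOC_Os01g56200), a relative of the salicylic acid coactivator NPR1, had 2044, 1802 and 1865 in AM and 1582, 1609 and 1591 in PM. RR23 (LOC_Os02g55320), a type-B response regulator, the class of transcription factor that ends the cytokinin relay, had 1165, 1057 and 1211 in AM and 1055, 1052 and 969 in PM. At these 3 loci every AM value lay above every PM value, which was the case at none of the other 14 named members. At RR23 the gap was only 1057 against 1055, well under the counting error of 4.01% at its smallest raw count. NPR2 had the largest difference of the named members, with PM at 0.837 times AM.

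The auxin genes among the named members stand on both sides of one switch: Aux/IAA proteins repress the auxin response factors until auxin brings about their breakdown. The repressor IAA19 (LOC_Os05g48590) had 1098, 1136 and 1018 in AM and 1070, 1001 and 1041 in PM. The response factor ARF7 (LOC_Os02g35140) had 2032, 1710 and 2092 in AM and 1953, 1984 and 1768 in PM. AM and PM overlapped at both, with PM means of 0.957 and 0.978 times the AM means.

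Kinases and a phosphatase of signalling made up another group of named members. SAPK8 (LOC_Os03g55600), a kinase of the family that acts in abscisic acid and osmotic stress responses, had 1923, 2012 and 1703 in AM and 1595, 1907 and 1684 in PM. The calcium-dependent protein kinases CPK1 (LOC_Os01g43410) and CPK13 (LOC_Os04g49510) are activated by calcium. CPK1 had 1523, 1381 and 1591 in AM and 1556, 1335 and 1449 in PM. CPK13 had 2432, 2493 and 2549 in AM and 2666, 2331 and 2308 in PM. BSL2 (LOC_Os12g42310), a phosphatase of a family that acts in brassinosteroid signalling in Arabidopsis, had 2832, 2367 and 2895 in AM and 2605, 2812 and 2316 in PM. All 4 overlapped between AM and PM, with PM means between 0.92 and 0.977 times the AM means.

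Named members that act on transcripts themselves were CDKC2 and the U2AF65 pair. CDKC2 (LOC_Os01g72790), a cyclin-dependent kinase of the class that phosphorylates RNA polymerase II in Arabidopsis, had 1969, 1994 and 1636 in AM and 1853, 1848 and 1950 in PM. U2AF65A (LOC_Os11g41820) and U2AF65B (LOC_Os11g45590) are large subunits of the factor that recognises the end of introns during splicing. U2AF65A had 2303, 1831 and 1942 in AM and 1786, 1987 and 1934 in PM. U2AF65B had 2086, 2030 and 1927 in AM and 1902, 2336 and 2158 in PM. The highest value of U2AF65A was in AM replicate 1 and that of U2AF65B in PM replicate 2, and the groups overlapped at all 3 loci.

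**Figure D2:**
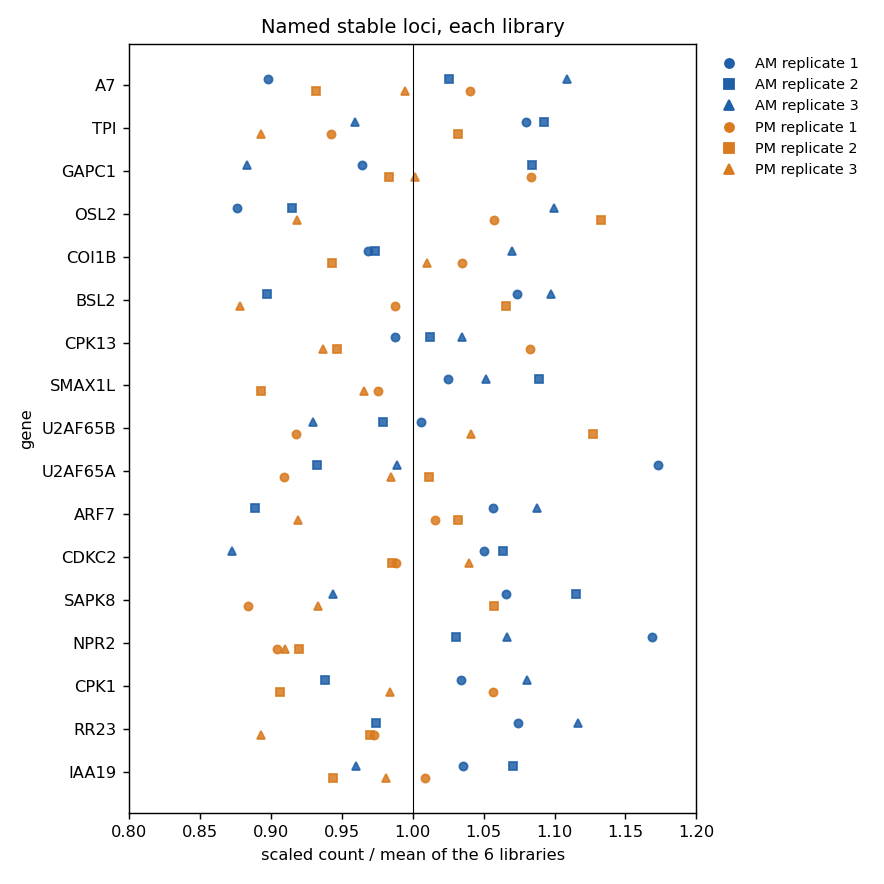
Rows are the 17 named stable loci and the horizontal axis is the scaled count in each library divided by the mean of the locus over 6 libraries; blue marks are AM and orange marks PM, and the shape gives the replicate number. Blue and orange are mixed in most rows, and they are apart for SMAX1L, NPR2 and, only barely, RR23, where AM lies above PM.

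Small differences with no overlap were found in the rest of the set as well. The AM and PM ranges were apart at 41 of the 183 members, 24 with AM higher and 17 with PM higher, against 69.8% of the well-expressed loci; the rule used this contrast, so nothing is read from the count. The log2 ratio of the PM to the AM mean ran from -0.26 to 0.30 over the members, with a median of -0.02, and the means lay within 1.1-fold at 130 members. In the edgeR quasi-likelihood test over 20548 loci, 55.9% were called at an adjusted p of 0.05, and 64.1% of the well-expressed loci. Of the members, 0 were called by edgeR and 0 by DESeq2, and 0 had an unadjusted p under 0.05 in either. The limit on the ratio keeps the differences small and so holds these counts down, and nothing is read from them.

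The extremes of the members were shared among all 6 libraries, but unevenly. PM replicate 2 was the highest library at 49 members and PM replicate 3 the lowest at 51. These are 26.8% and 27.9% of the members, against 29.9% and 26.7% of the well-expressed loci. AM replicate 1 was the highest at 43 members and AM replicate 3 the lowest at 40, or 23.5% and 21.9%, against 19.9% and 15.5% of the well-expressed loci. PM replicate 3 was the highest at only 12 members, or 6.56%, against 10.9% of the well-expressed loci. These counts are by median of ratios, and the order under other factors was not counted. By median of ratios, TMM and upper quartile, the factor of PM replicate 2 was 0.590, 0.614 and 0.609. That of PM replicate 3 was 1.94, 1.83 and 1.95.

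The word stable depends on the scaling. When counts were divided by library totals in place of size factors, every one of the 183 members was higher in PM, none of them with overlap between the groups. Not overlapping by library totals was also true of 79.4% of the well-expressed loci. The median PM to AM ratio of the members was then 1.77 and the log2 ratios ran from 0.58 to 1.13. With TMM factors, a scaling that trims extreme loci, the median log2 ratio was 0.01, and with upper-quartile factors it was -0.05. By library totals the median log2 ratio was 0.82 over the members and 0.70 over all well-expressed loci. The change of scaling moves all loci by nearly the same amount, so the limit on the ratio fixes that all members end up higher in PM.

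**Figure D3:**
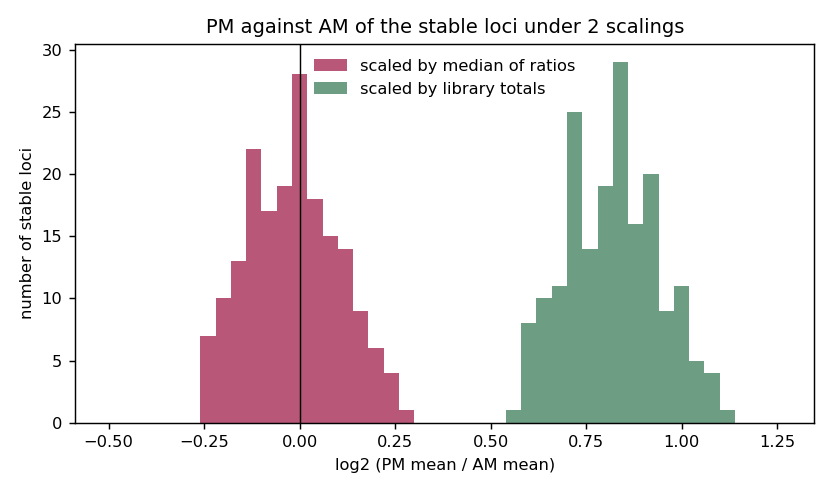
The horizontal axis is the log2 ratio of the PM to the AM mean and the vertical axis the number of stable loci in each interval, for counts scaled by median of ratios in red and by library totals in green. The red values surround 0, between -0.26 and 0.30, and the green values all lie above it, between 0.58 and 1.13.

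Expressed as shares of raw gene counts, which is the scaling by library totals over again, the members can be followed library by library. Members took 1.48%, 1.27% and 1.55% of the gene counts in AM replicates 1, 2 and 3, and 2.61%, 2.52% and 2.47% in PM replicates 1, 2 and 3. Every PM share lay above every AM share, with means of 1.43% ± 0.148 in AM and 2.53% ± 0.0678 in PM (SD, n = 3). Without LOC_Os03g56280 and A7 the means were 1.12% ± 0.125 and 1.97% ± 0.0601. The 10 loci with the largest share of reads over all libraries took 15.4% ± 1.69 of the gene counts in AM and 5.28% ± 0.671 in PM (SD, n = 3). The leaf markers given with the tissue check were likewise higher in every AM library than in any PM library, and the part of either in the shift of the members was not tested. Which scaling gives the amount of transcript per cell cannot be told from these counts.

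**Figure D4:**
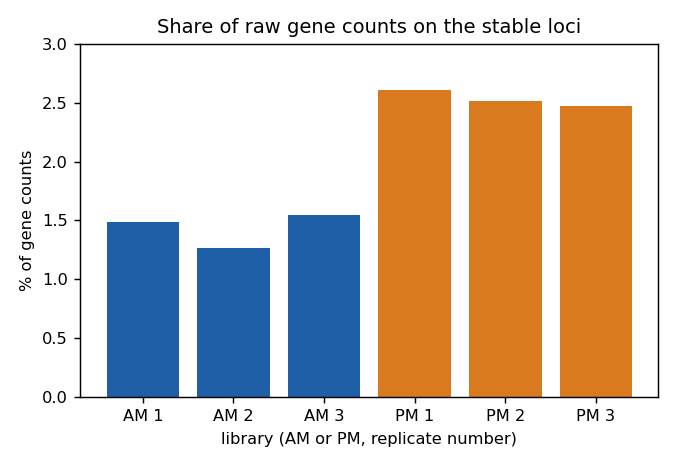
Bars give, for each library on the horizontal axis, the percent of raw gene counts that fell on the 183 stable loci. AM bars stand between 1.27% and 1.55% and PM bars between 2.47% and 2.61%.

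A rule applied with library totals finds another set. It was met by 68 loci, none of which is among the 183. By median-of-ratios scaling these 68 loci had log2 PM to AM ratios between -1.12 and -0.64, with a median of -0.84. With TMM factors the rule found 272 loci, of which 162 were members, or 59.6% of the loci it found and 88.5% of the 183. Upper-quartile factors gave 196 loci with 157 members, or 80.1% of those and 85.8% of the 183.

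The rule was also applied to 5 libraries at a time, leaving out each library in turn. Loci chosen in this way, with the mean taken over those 5 libraries, are not the same set as the 183 members. Members keep the limit in every library by rule, so the shares below do not describe them. The rule on 5 libraries found 230 to 370 loci. With the sixth library added, 50.5% to 77.4% of them stayed at or under 1.3, the lowest with PM replicate 3 left out and the highest with PM replicate 1. Over the 6 leave-outs, 1067 of 1764 choices, or 60.5%, were kept. The value in the library left out lay within 1.3-fold of the mean of the other 5 for 76.2% to 97% of the loci chosen, against 31.9% to 41.7% of the remaining well-expressed loci. That mean mixes AM and PM, so loci that differ between the groups fall outside by construction. Against the mean of the other 2 libraries of the same group, 80.1% to 98.3% of the loci chosen and 64.2% to 92.5% of the remaining ones lay within 1.3-fold. The choices overlap and share libraries, so they are not independent of each other.

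PCR reference genes were listed for their use in PCR and not by the rule on the ratio, though with earlier results of these data known, and their PM against AM difference was tested. Of the 14 that the list as first written names and the table matches, 9 were called by edgeR, 4 higher and 5 lower in PM, or 9 of 14 against 55.9% of all loci tested, of which 28.0% were higher and 28.0% lower. With library totals 10 were called, 7 higher and 3 lower, and of all loci tested 54.5% were then higher and 13.5% lower. The median log2 difference was -0.15. Mean scaled counts of at least 1000 were reached by 10 of them, with a median ratio of 2.99, and TPI and GAPC1 were the only members among these. The other 8, which follow, had ratios between 1.92 and 7.28.

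EF1A (LOC_Os03g08020), a translation elongation factor, had scaled counts of 1115, 1214 and 1442 in AM and 4043, 3361 and 4564 in PM. EIF4A (LOC_Os06g48750), an RNA helicase of translation initiation, had 1925, 1733 and 1909 in AM and 5196, 5971 and 5482 in PM. TCTP (LOC_Os11g43900), the translationally controlled tumour protein homologue, had 7484, 7563 and 5435 in AM and 15870, 19126 and 20848 in PM. All PM values of these 3 genes exceeded all AM values. EdgeR log2 differences were 1.66 ± 0.19 for EF1A, 1.57 ± 0.15 for EIF4A and 1.44 ± 0.21 for TCTP (SE), and each adjusted p was under 0.05. With library totals they were 2.50, 2.41 and 2.30. EF1A has near-identical copies in rice, and reads that fit more than 1 place were not counted, so its level is uncertain.

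ACT1 (LOC_Os03g50885), an actin, had 2271, 2644 and 2641 in AM and 1009, 869 and 984 in PM. TUB7 (LOC_Os03g56810), a beta-tubulin, had 4523, 6266 and 2882 in AM and 1237, 860 and 1168 in PM. Both were called lower in PM, ACT1 by -1.41 ± 0.15 and TUB7 by -2.07 ± 0.29 on the log2 scale (SE, edgeR), and with library totals by -0.56 and -1.18. TUBA1 (LOC_Os07g38730), an alpha-tubulin, had 2039, 2573 and 3039 in AM and 1777, 1579 and 1680 in PM. It was called lower by -0.61 ± 0.18 with an adjusted p of 0.019 by edgeR. Without AM replicate 2, PM replicate 1 or PM replicate 2 the edgeR adjusted p of TUBA1 was 0.0529, 0.0553 and 0.0621, and with library totals its log2 difference was 0.23 and not called.

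The relatives of GAPC1 did not share its narrow range of scaled counts. GAPC3 (LOC_Os02g38920) had 2120, 2448 and 2431 in AM and 1664, 1096 and 1435 in PM, and was called lower by edgeR at -0.74 ± 0.19 (SE) on the log2 scale, with an adjusted p of 0.00977; with library totals the log2 difference was 0.11 and not called. GAPC2 (LOC_Os04g40950) had 2585, 3160 and 4801 in AM and 2608, 1635 and 2318 in PM. Its log2 difference was -0.69 ± 0.27 (SE), with an edgeR adjusted p of 0.0572 that missed the threshold, though DESeq2 gave 0.0362 and edgeR without AM replicate 1 gave 0.0313. With library totals the log2 difference of GAPC2 was 0.14 and not called, and AM replicate 3 was its highest library. Ratios of largest to smallest were 1.23 for GAPC1, 2.23 for GAPC3 and 2.94 for GAPC2. The difference between these genes was not tested.

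**Figure D5:**
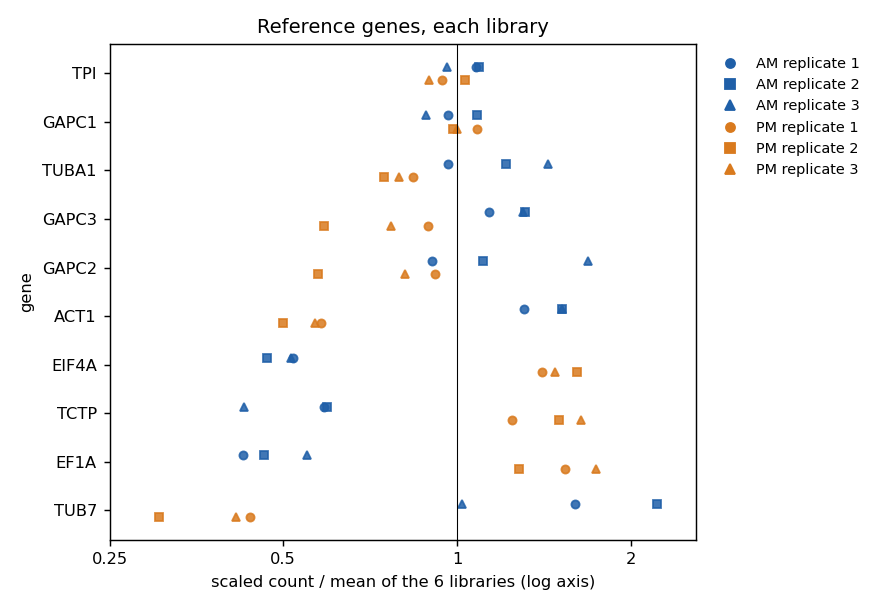
Rows are the 10 reference genes with a mean scaled count of at least 1000, and the horizontal axis is the scaled count in each library divided by the mean of the gene over 6 libraries, on a log scale, with AM in blue and PM in orange. TPI and GAPC1 stay close to 1, while EF1A, EIF4A and TCTP have all PM marks on the right and ACT1 and TUB7 have them on the left.

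Hormone genes gave the class in which the list as first written held a further member, COI1B. Of its 12 entries, 3 were called higher and 2 lower in PM by edgeR and 7 were not called, with a median log2 difference of 0.05, against 28.0% higher and 28.0% lower over all tested loci. With library totals 9 were called higher and 0 lower, against 54.5% higher and 13.5% lower over all tested loci. The genes in this paragraph other than COI1B were named after their values had been seen. GSK2, a kinase that restrains brassinosteroid responses, rose by 2.09 ± 0.28 and GID1, the gibberellin receptor, by 1.37 ± 0.19 on the log2 scale (SE), with edgeR adjusted p-values of 0.000324 and 0.000418; with library totals they rose by 2.91 and 2.21. GID2, an F-box protein of gibberellin signalling, fell by 1.17 ± 0.15 on the log2 scale (SE), with an edgeR adjusted p of 0.000261; with library totals it differed by -0.32 and was not called. EIN2 of the ethylene pathway, at 1.14 ± 0.39, and the brassinosteroid receptor BRI1, at -0.49 ± 0.18, had edgeR adjusted p-values of 0.0349 and 0.0467. Leaving out either AM replicate 1 or AM replicate 2, or either PM replicate 1 or PM replicate 3, took the edgeR adjusted p of EIN2 to between 0.0873 and 0.0933. BRI1 missed the threshold without AM replicate 2 or 3 and without PM replicate 1 or 2, at edgeR adjusted p-values of 0.0989 to 0.144. It also missed it with DESeq2, at 0.0503, and in edgeR with no filter, at 0.0828, and differed by 0.36 in the other direction with library totals. The jasmonate receptor gene COI1A had a ratio of 1.41 and the strigolactone F-box gene D3 one of 1.5, both outside the limit, and neither was called by edgeR with TMM. With library totals both were called higher in PM, COI1A by 0.58 and D3 by 0.95 on the log2 scale, with edgeR adjusted p-values of 0.0313 and 0.00193.

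Over all classes of the list as first written, 72 entries were tested by edgeR, 17 being higher and 30 lower in PM and 25 not called, with a median log2 difference of -0.36, against 28.0% higher and 28.0% lower over all tested loci. With library totals 35 were called higher and 16 lower, against 54.5% higher and 13.5% lower over all tested loci. Of the 51 well-expressed entries 3 were members, namely TPI, GAPC1 and COI1B, and the median ratio of the 51 was 2.94, against 2.41 over all well-expressed loci. The aquaporins, water channels of the cell and vacuole membranes, had the highest median ratio, 17.7 over 5 genes, and 4 of the 5 were called lower in PM, with TMM and with library totals.

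Members were found on all 12 chromosomes, as the identifiers give them. They made up between 1.56% of the well-expressed loci on chromosome 10, with 4 members, and 4.8% on chromosome 11, with 11 members. Chromosome 3 held the most, 33. In 8 cases the next well-expressed locus in identifier order was also a member, among them LOC_Os12g37860 and LOC_Os12g37870, and LOC_Os03g56280 and LOC_Os03g56300. Of 365 neighbours of members, 16 were members, or 4.38%, against 3.53% of all well-expressed loci. The median ratio of the neighbours was 2.33, close to the 2.41 of all well-expressed loci.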

How the data were processed

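RNA from rice plants was made into strand-keeping libraries with a Qiagen plant kit and a NEB Ultra directional kit, per the labels' protocols. The authors deposited 6 tables of raw counts per locus, for which the submitters' processing notes name Trimmomatic 0.33, HTSeq 0.6.1 and STAR. The build, the annotation, the strand setting and STAR's version are not stated in those notes or in the labels. Reads of overlapping or antisense loci therefore cannot be told apart. The 5 summary lines of each file name no gene and stayed out of library sizes. Of all records, those aligned to more than 1 place made up 49.4% ± 5.91 in AM and 44% ± 4.44 in PM (SD, n = 3), and those on no feature 3.53% ± 0.673 and 5.17% ± 0.982. Near-identical copies can therefore lose reads. Of the listed loci, 24469 had no count. No 2 replicates agreed within sampling noise, with chi-square values of 18.7 to 133 for each degree of freedom, and each library was used as its own sample.

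Median-of-ratios size factors scaled the counts for the rule. PM was compared with AM with edgeR 4.0.16 (quasi-likelihood test, TMM, filterByExpr with a minimum count of 10, R 4.3.3) and Benjamini-Hochberg adjustment at 0.05 over 20548 loci; SEs come from the coefficient and its F statistic. DESeq2 1.42.0, other scalings, no filter, a replicate block and leaving out each library were alternatives. Counting errors cover sampling of reads only.

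The members and lists were chosen with earlier results of these data known. By a set rule, the text names every member the hand-written list names, the 8 with the highest mean, the 8 with the smallest ratio, 4 just inside and 4 just outside the limit, and reference genes with a mean of at least 1000. Of 117 entries first written, 75 matched the RefSeq gene table of ASM3414082v1 by symbol, chromosome and relative position within 0.05 of the chromosome's loci; 31 had no symbol there, 8 were on another chromosome, 1 at another position and 2 were not among the loci. This tolerance spans many genes, so a name rests on the list. For 8 entries alternate symbols, and for some tubulins the table's own symbols, were taken after values were seen. That table holds neither the files' identifiers nor their build, so no sequences or coordinates are printed.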

Additional observations from a re-analysis of the deposited data

How the results depend on the processing

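The number of stable loci, 183, was 68 with library totals, 312 with a minimum mean of 500, 76 with a minimum of 2000, 45 with a ratio of at most 1.2 and 737 with at most 1.5; TMM and upper-quartile factors kept it within 1.5 times. On 5 libraries the rule found 230 to 370 loci, and 50.5% to 77.4% of these kept the limit with the sixth. Under one scaling a ratio over 6 libraries cannot be smaller than the ratio over 5 of them, so some loss follows from the rule. What sets the range between libraries was not tested. The median edgeR log2 difference of the members, -0.02, was 0.82 with library totals and 0.0089 with no filter, and -0.045 to 0.0061 without each library. Library totals called all 183 members higher in PM, a direction that the rule fixes. Every other setting run called 0 members. The counts of called loci, of called well-expressed loci and of called reference genes stayed within 1.5 times in each alternative run, but their directions did not: with library totals the higher calls went from 5748 to 11201 over all loci, from 1406 to 2923 over well-expressed loci and from 4 to 7 over reference genes. With library totals the log2 differences of GAPC3, TUBA1, TBP2, BRI1 and COI1A were 0.11, 0.23, 0.69, 0.36 and 0.58, opposite to those under TMM. The sign of GAPC2 changed as well, as given with its relatives. Of the 33 members given by name or identifier under the naming rule, all 33 moved by more than the replicate SD with library totals, 2 with no filter (LOC_Os03g46340 and LOC_Os06g48770), 1 without PM replicate 2 (SMAX1L) and 0 in the other settings. The share of gene counts on the members was 1.38% to 1.52% in AM and 2.49% to 2.56% in PM without each replicate.

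Same-numbered AM and PM libraries had deviations correlated at -0.024, -0.486 and -0.03. Differently numbered libraries had correlations from -0.471 (AM replicate 1 with PM replicate 3) to 0.486 (AM replicate 2 with PM replicate 3). The deviations were taken from group means of only 3 libraries, so these values cannot decide whether the numbers pair the samples. With the replicate block, 10137 loci were called against 11493 without it, with 9 reference genes and 0 members among them; BRI1 was no longer called, at an edgeR adjusted p of 0.0863. Depth limits the reading of ratios near 1.1, since counting error alone reaches 4.28% at the lowest count of a member. The settings for hormone genes were chosen after seeing the data.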
